A study of Mus musculus with 2 samples.

Results

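Immediate early transcription factors are DNA-binding proteins whose genes are switched on within minutes of a stimulus, without new protein synthesis, and whose transcripts are short-lived. The set described here is the Egr zinc finger genes Egr1, Egr2 and Egr3, the Fos genes Fos, Fosb and Fosl2, the Jun genes Jun, Junb and Jund, and Myc. The 10 genes were listed by name, by a rule that uses no value, but with earlier results of these data known, so their count is not independent evidence. All 10 had a probe set annotated with 1 gene symbol, among 22180 genes with such a probe set. Where a symbol had several probe sets, the one with the highest mean of both arrays was used, which concerned only Jund.

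The data were 2 Affymetrix whole-transcript arrays of total liver RNA, 1 from an irradiated and 1 from a control sample. The irradiated sample was liver of male mice of the inbred C57BL/6 strain that received a single whole-body gamma-ray dose of 6 Gy at 4 weeks of age, at 0.81 Gy per minute under anaesthesia, with liver taken 5 weeks later, at 9 weeks of age. The control sample was unirradiated liver of male C57BL/6 mice of the same age, 9 weeks. Per the labels, both groups were kept on standard chow under a light and dark cycle. The labels give neither the number of animals behind each RNA nor the hour at which the livers were taken, nor whether control mice were anaesthetized. The comparison addresses liver transcripts at this late time after the dose.

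In liver, immediate early genes are known for their response to growth factors, injury, partial hepatectomy and feeding, and as a class they also respond to ionizing radiation. Kinase cascades activate serum response factor with its ternary complex partners, and CREB, at the promoters of these genes. Egr proteins bind GC-rich sites through zinc fingers. Fos proteins dimerize with Jun proteins to form AP-1, and Jun proteins also pair among themselves. Myc pairs with Max to drive growth genes.

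Of the 10 genes, 9 were higher on the irradiated array and 1, Jund, was lower by 0.02 on the log2 scale. Egr1, Myc and Fos were at least 2-fold higher, and the other 7 genes were within 1.5-fold. Genes were called expressed if at least 1 array gave 6.06 or more, which is the overall median of the deposited table, and all 10 passed this floor. Of the 10, 3 were therefore 2-fold higher and 0 were 2-fold lower, against 0.321% and 0.183% of 13689 expressed genes. At 1.5-fold the count of the 10 stayed at 3 higher and 0 lower, against 1.14% and 0.650% of expressed genes. A difference above 0 was found for 48.5% of expressed genes. The median difference of the 10 genes was 0.32, against -0.00 over expressed genes, whose central 95% lay between -0.37 and 0.42. Each group was a single array without replicates, so the values have no error, no test was possible and no p-value was computed. In whole liver, more cells that express a gene and more RNA per cell cannot be told apart.

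**Figure D1:**
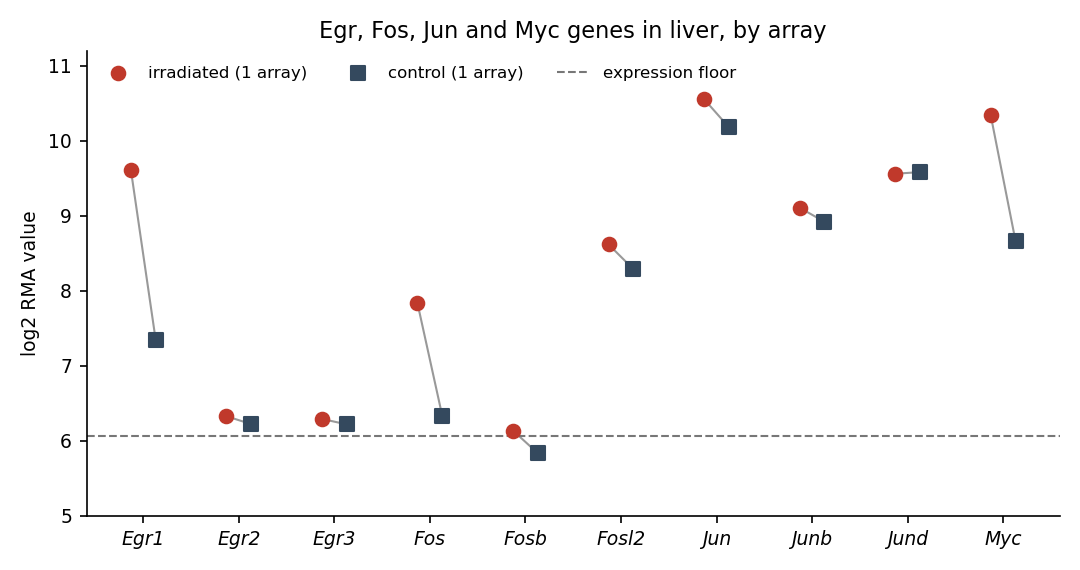
Log2 RMA value (vertical axis) of each of the 10 genes on the irradiated array (red circles) and the control array (dark squares), with the expression floor of 6.06 dashed. Each point is 1 array, without error bars, and heights of different genes cannot be compared because each gene has its own probes. Egr1, Fos and Myc show the widest gaps, and Fosb in the control is the only point below the floor.

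Egr1, a zinc finger activator that is also a well-known early responder to growth factors and radiation, read 9.61 on the irradiated array and 7.34 on the control array. The difference of 2.27, or 4.83-fold, was the largest of the 10 genes and ranked 10th among all 13689 expressed genes. Egr2, known for its part in Schwann cell myelination and lymphocyte tolerance, read 6.33 on the irradiated array and 6.22 on the control array, a difference of 0.11. Egr3, known for muscle spindle development and T cell function, read 6.29 on the irradiated array and 6.22 on the control array, a difference of 0.07. The Egr2 and Egr3 values lay just above the floor on both arrays, where little signal separates them from genes that liver is not known to use. Among 1088 olfactory receptor genes, a class of sensory neurons, 3.40% reached the Egr2 value and 3.49% the Egr3 value on the irradiated array, against 3.86% for each gene on the control array. For Egr1 the corresponding shares were 0% on the irradiated array and 0.276% on the control array. The large difference among the Egr genes was thus that of Egr1, while Egr2 and Egr3 gave low readings on both arrays. Egr4, a related gene outside the group, stayed under the floor in both samples, at 5.76 when irradiated and 5.72 in the control.

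Promoter windows came from RefSeq on mouse build GRCm38.p6. They ran from 250 bases before to 50 bases after an annotated transcript start and were searched for 7 of the 10 genes. These were Egr2, with 5 windows, and Fos, Fosb, Fosl2, Jun, Junb and Jund, with 1 each. Egr3 and Myc were not matched. Egr1 was left out of this search, so its promoter is not described. The windows were searched on both strands for the CArG box, bound by serum response factor, for the CREB core TGACG, for the CRE-like element TGACNTCA, for the Egr site GCGNGGGCG, for the TATA box TATAAA, for the AP-1 site TGANTCA, for the E-box CACGTG and for the GC box GGGCGG. The CREB core can overlap the CRE-like element, and the GC box can overlap the Egr site. In the sequences, shown 5′ to 3′ to place the matches, capitals mark the first 5 of these motifs. A match is a string of letters and not evidence of binding. The Egr2 window at chr10:67537619-67537918, plus strand, held a CArG box starting 72 bases before the transcript start and TGACG matches starting 111 and 55 bases before it.
Egr2: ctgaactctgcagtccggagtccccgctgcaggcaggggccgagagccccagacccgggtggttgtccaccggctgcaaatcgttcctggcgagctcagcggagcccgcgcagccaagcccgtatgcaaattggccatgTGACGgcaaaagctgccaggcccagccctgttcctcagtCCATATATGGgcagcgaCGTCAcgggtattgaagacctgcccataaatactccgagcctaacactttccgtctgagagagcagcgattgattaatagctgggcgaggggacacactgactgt
The CArG box was in 1.63% of all 32851 promoter windows and in 1.81% of the 27025 genes with windows. Among the 7 genes, only Egr2 had a match. The CArG box stood in 4 of the 5 Egr2 windows, 3 of which overlap and share the same copy. The Egr2 values were close to the floor on both arrays, and a link between these letters and expression was not tested.

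Fos, the founding AP-1 subunit, read 7.83 on the irradiated array and 6.33 on the control array. The difference of 1.505, or 2.84-fold, ranked 22nd among expressed genes. The control value was close to the floor, and 2.85% of olfactory receptor genes reached it there, against 0.276% that reached the irradiated value. The Fos control value thus lay nearer to the range of low signal than its irradiated value. Fosb, a close relative that is induced alongside Fos in many cells, read 6.13 on the irradiated array and 5.83 on the control array, below the floor. Its difference was 0.30 as measured and 0.08 with the control value set to the floor. Fosl2, which encodes Fra-2, a Fos-related protein known for a role in fibrosis and bone, read 8.62 on the irradiated array and 8.29 on the control array, a difference of 0.33, or 1.26-fold. All 3 Fos genes were therefore higher on the irradiated array, but only Fos lay outside the central 95% of expressed genes.

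The Fos window at chr12:85473640-85473939, plus strand, held TGACG starting 129 and 66 bases before the transcript start and a TATA box starting 33 bases before it. The Fosb window at chr7:19309996-19310295, minus strand, held TGACG starting 60 bases and an Egr site starting 50 bases before the start. Both are shown because Fos and Fosb are the family members most often induced together.
Fos: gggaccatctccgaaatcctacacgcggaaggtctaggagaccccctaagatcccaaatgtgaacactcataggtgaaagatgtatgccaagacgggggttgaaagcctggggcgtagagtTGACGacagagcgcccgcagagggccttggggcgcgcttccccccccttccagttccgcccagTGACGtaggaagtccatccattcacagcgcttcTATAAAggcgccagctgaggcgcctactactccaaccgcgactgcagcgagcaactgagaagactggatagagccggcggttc
Fosb: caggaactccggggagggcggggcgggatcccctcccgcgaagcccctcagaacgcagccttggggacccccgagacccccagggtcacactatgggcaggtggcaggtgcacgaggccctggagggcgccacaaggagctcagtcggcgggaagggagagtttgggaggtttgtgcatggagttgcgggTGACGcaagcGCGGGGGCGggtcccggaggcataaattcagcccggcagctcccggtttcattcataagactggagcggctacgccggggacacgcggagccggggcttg
The CREB core was present in 4 of the 7 genes, namely Egr2, Fos, Fosb and Junb, and in 23.0% of the 27025 genes with promoter windows. The Egr site was present in Fosb and Fosl2, and in 6.27% of genes with windows. No CArG box was in the Fos or Fosb window, which says only that these letters are not in it.

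Each of the Jun genes differed less than Egr1, Fos and Myc. Jun, the main partner of Fos and a target of the JNK kinases, read 10.55 on the irradiated array and 10.18 on the control array, a difference of 0.38. Junb, which often restrains Jun activity, read 9.11 on the irradiated array and 8.92 on the control array, a difference of 0.19. Jund, the Jun gene that is expressed constitutively in many cells, read 9.56 on the irradiated array and 9.58 on the control array, a difference of -0.02. A second Jund probe set read 6.70 on the irradiated array and 6.81 on the control array, a difference of -0.11. None of the 3 Jun genes reached 1.5-fold or lay outside the central 95% of expressed genes. The Jun difference ranked 457th among expressed genes and the Junb difference 1780th.

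The Jun window at chr4:95052173-95052472, minus strand, held the CRE-like element in the form TGACATCA starting 45 bases before the transcript start. The Junb window at chr8:84978699-84978998, minus strand, held TGACG starting 106 bases before the transcript start. Its TATA box match began at the first base of the annotated transcript, not before it. Both windows are shown to set the Jun family beside Fos.
Jun: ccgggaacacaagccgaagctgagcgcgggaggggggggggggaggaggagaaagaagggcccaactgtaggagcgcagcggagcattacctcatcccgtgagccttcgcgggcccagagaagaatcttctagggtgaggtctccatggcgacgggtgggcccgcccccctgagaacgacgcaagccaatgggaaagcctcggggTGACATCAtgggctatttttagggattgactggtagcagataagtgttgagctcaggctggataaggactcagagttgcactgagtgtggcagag
Junb: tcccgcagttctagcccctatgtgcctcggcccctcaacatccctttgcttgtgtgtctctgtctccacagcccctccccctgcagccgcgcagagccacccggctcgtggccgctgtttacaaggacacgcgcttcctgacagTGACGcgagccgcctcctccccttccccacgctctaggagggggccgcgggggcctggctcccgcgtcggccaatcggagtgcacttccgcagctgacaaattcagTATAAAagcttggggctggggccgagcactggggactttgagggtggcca
The CRE-like element was in 8.83% of all windows, and Jun was the only one of the 7 genes with it. The Jund window held none of the motifs searched. The AP-1 site TGANTCA was in none of the 7 genes' windows, in 7.81% of all windows and in 8.97% of genes with windows. The GC box was in 5 of the 7 genes, against 38.2% of genes with windows. The TATA box was in 2 of the 7, against 15.7%, and the E-box in 1 of the 7, against 8.09%.

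**Figure D2:**
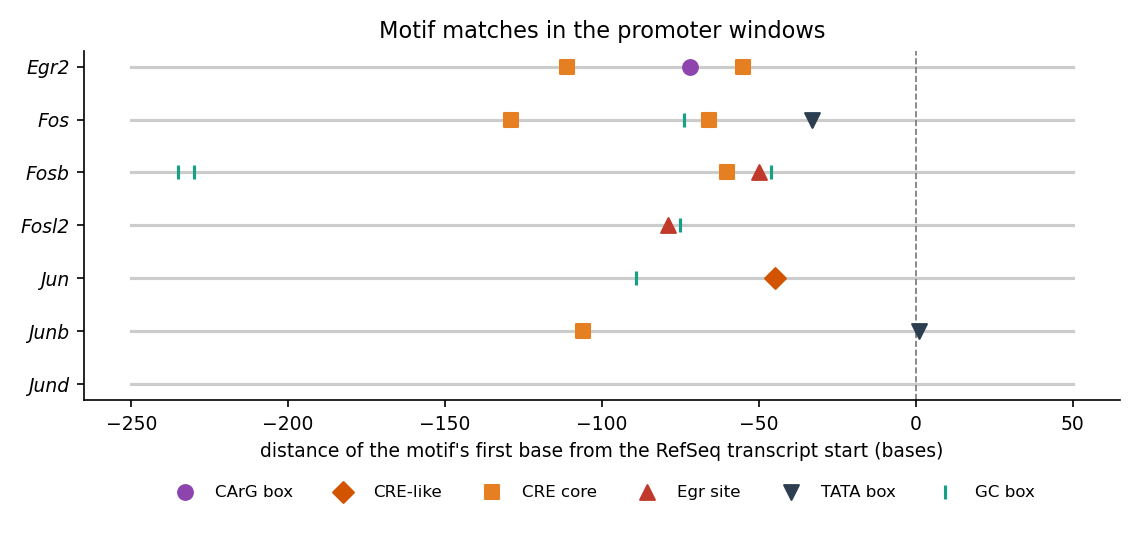
Positions of motif matches in the promoter windows of 7 genes, as distance in bases from the RefSeq transcript start (horizontal axis, dashed line at the start). Each row is 1 gene and each symbol the first base of a match, with the third Egr2 window standing for that gene. The CREB core (orange squares) is in Egr2, Fos, Fosb and Junb, and the Jund row has no match.

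Myc, the growth-promoting transcription factor that is induced early in regenerating liver, read 10.34 on the irradiated array and 8.66 on the control array. The difference of 1.68, or 3.20-fold, ranked 18th among expressed genes. Both Myc values stood far above the floor, and 0 of 1088 olfactory receptor genes reached either. Unlike that of Fos, the Myc control value too was outside the range of low signal. Pvt1, the non-coding gene next to Myc on chromosome 15, was below the floor on both arrays, at 5.70 when irradiated and 5.74 in the control.

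Differences tended to spread more among low genes, so each of the 3 leading genes was also placed among expressed genes of the same decile of mean level. In the decile of Egr1, 1 gene had a larger difference, and the central 95% lay between -0.37 and 0.39. In the decile of Myc, 1 gene had a larger difference, and the central 95% lay between -0.34 and 0.31. In the decile of Fos, 3 genes had a larger difference, and the central 95% lay between -0.35 and 0.55. Jun, at 0.38, lay above the central 95% of its own decile, which ended at 0.30, although 21 genes of that decile had a larger difference. The other 6 genes lay inside the central 95% of their deciles.

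**Figure D3:**
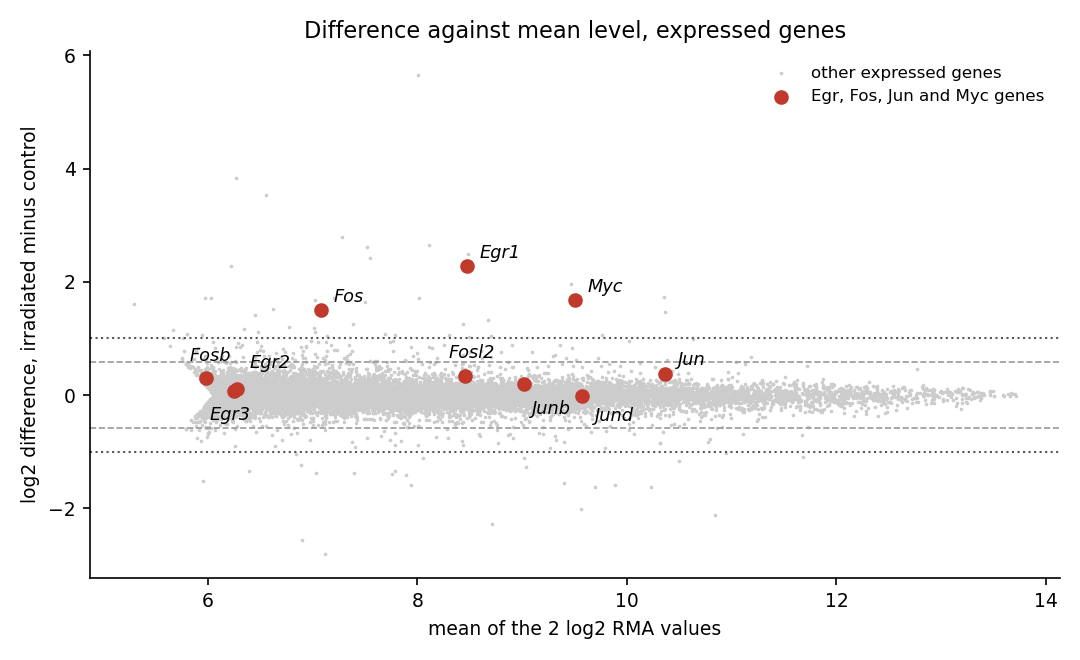
Log2 difference, irradiated minus control (vertical axis), against the mean of both log2 RMA values (horizontal axis) for 13689 expressed genes, with the 10 genes in red. Lines mark 1.5-fold (dashed) and 2-fold (dotted). Egr1, Myc and Fos lie above the 2-fold line, and the other 7 lie within the cloud of expressed genes.

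The expressed genes whose difference was closest to that of Egr1, by the absolute gap between differences over the 2 arrays, were B4galnt2, Cnn1 and Cd24a. B4galnt2, which encodes a glycosyltransferase, differed by 2.28, but its control value of 5.08 was below the floor, and with that value set to the floor it differed by 1.31. Cnn1, which encodes the smooth muscle protein calponin, differed by 2.42, and Cd24a, which encodes an epithelial surface protein, by 2.499. With 2 arrays this likeness is only one of size.

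The genes on either side of each of the 10, by RefSeq order among protein-coding and long non-coding genes with a probe set of 1 symbol, numbered 20, and 16 of them were expressed. Their median difference was -0.01, with a range of -0.14 to 0.37, and 0 of them reached 1.5-fold in either direction. The neighbours of Egr1, Reep2 and Etf1, differed by 0.13 and 0.14. The neighbours of Fos, Tmed10 and the AP-1 gene Jdp2, differed by 0.03 and 0.13. The differences of Egr1 and Fos were not seen in the genes beside them. The highest neighbour was Hook2, beside Junb, at 0.37.

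The other immediate early genes described here numbered 50, of which 48 had a probe set of 1 symbol and 45 were expressed. Their median difference was 0.17, with 35 above 0 and 10 below 0, while 48.5% of all expressed genes were above 0. At least 1.5-fold higher were 7, and 0 were 1.5-fold lower, against 1.14% and 0.650% of expressed genes. Gadd45g, a growth arrest and stress gene, read 11.22 on the irradiated array and 9.49 on the control array, a difference of 1.73. Btg2, an antiproliferative p53 target, read 10.29 on the irradiated array and 9.23 on the control array, a difference of 1.05. Atf3, a stress-induced factor that pairs with Jun proteins, read 9.01 on the irradiated array and 7.98 on the control array, a difference of 1.03. These 3 were the genes of the list that reached 2-fold. Csrnp1, a nuclear protein gene induced by AXIN1, differed by 0.87, and the cytokine signalling inhibitor Socs3 by 0.84. The nuclear receptor gene Nr4a1 (0.70) and the stress kinase gene Plk3 (0.68) completed the 7. Several genes that are commonly induced together with Fos and Egr1 differed little. The immediate early gene Ier2 differed by 0.31, the phosphatase gene Dusp1 by 0.17, the mRNA decay gene Zfp36 by 0.13, Klf6 by 0.12 and the matricellular gene Ccn1 by 0.08. Dusp6, an ERK phosphatase gene, differed by -0.40, the lowest value of the list, at 10.11 on the irradiated array and 10.52 on the control array. Ier2, Dusp1, Zfp36, Klf6, Ccn1 and Dusp6 were chosen after their values were seen.

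Among dimer partners for AP-1, 14 of 16 listed genes were measured and all 14 were expressed, with a median difference of -0.02. Atf3, also counted above, was the only one past 1.5-fold. Maff, a small Maf factor, differed by 0.34, Batf, a lymphoid AP-1 factor, by -0.19, Jdp2, a repressor that binds Jun, by 0.13, and Maf by -0.12. Of the Egr corepressors, Nab1 differed by 0.01. Nab2, a target and inhibitor of Egr1 in a feedback loop, read 8.41 on the irradiated array and 8.56 on the control array, a difference of -0.16. The difference of Egr1 thus stood beside a small one of opposite sign in Nab2.

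The 13 measured genes of the Myc family and Max network had a median difference of 0.06 and none reached 1.5-fold. Mycl, a Myc relative, differed by -0.37, Mxd1, a Max partner that opposes Myc, by 0.14, Mga by -0.14, Max itself by -0.14 and Mlx by 0.13. Apart from Mycl, the named genes of the network differed by at most 0.14 in size, while Myc differed by 1.68.

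Upstream kinases and receptors of the pathway had a median of -0.02 over 16 measured genes of 25 listed. Their values ran from -0.14 for the hepatocyte growth factor receptor gene Met to 0.11 for the kinase gene Braf. The receptor gene Egfr differed by -0.12, the kinase gene Rps6ka5 by -0.12 and Nras by 0.10. Upstream transcription factors had a median of 0.04 over 13 measured genes, from -0.17 for Mef2d to 0.18 for Crem, a CREB relative. Mrtfb, a cofactor of serum response factor, differed by 0.15, Stat3 by 0.14 and Elk1, a ternary complex factor, by -0.13. In neither list did any gene reach 1.5-fold. These are transcript values and say nothing of kinase activity or phosphorylation.

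Genes that limit the life of immediate early products were next. Over 10 measured genes the median was 0.03, and 0 reached 1.5-fold. Zfp36l2, which encodes a protein that promotes decay of AU-rich mRNAs, came closest at 0.58, reading 11.33 on the irradiated array and 10.75 on the control array. Its relatives Zfp36 and Zfp36l1 differed by 0.13 and -0.13, the RNA stabilizer gene Elavl1 by -0.11, and Usp28, which encodes a deubiquitinase that stabilizes Myc, by 0.04.

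**Figure D4:**
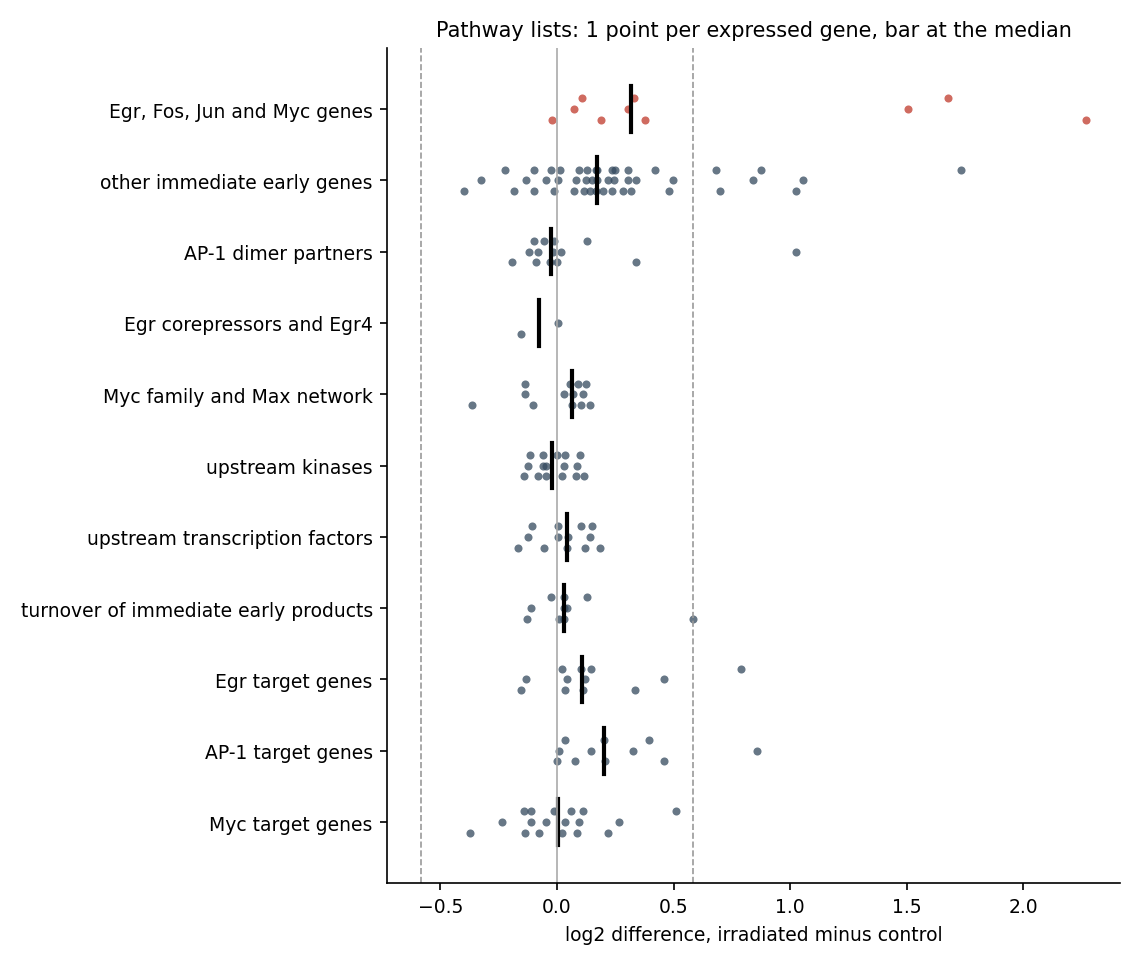
Log2 difference, irradiated minus control (horizontal axis), for every expressed gene of each pathway list (rows), with a black bar at the list median and dashed lines at 1.5-fold. The medians run from -0.08 for the 2 expressed Egr corepressor genes to 0.32 for the Egr, Fos, Jun and Myc genes, and the points past 1.5-fold are all on the higher side.

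Known target genes of the 3 families were read in the same way. Egr targets had a median of 0.11 over 12 measured genes, 10 above 0, with 1 at least 1.5-fold higher. That gene was Thbs1, a matricellular protein gene, at 6.89 on the irradiated array and 6.10 on the control array, a difference of 0.79. Cd44, an adhesion receptor gene, differed by 0.46, Icam1 by 0.33, Nab2 by -0.16 and Fgf2 by 0.14, with the control value of Fgf2 below the floor. AP-1 targets had a median of 0.20 over 11 expressed genes of 15 measured, with 10 above 0 and 0 below 0. Mmp12, the macrophage elastase gene, was the only one past 1.5-fold, at 6.74 on the irradiated array and 5.88, below the floor, on the control array. With the control value set to the floor, the difference of Mmp12 was 0.68, still past 1.5-fold. Cd44, also an Egr target, the urokinase receptor gene Plaur (0.39), the glutathione synthesis gene Gclc (0.33) and Hmox1 (0.21) came next. Myc targets had a median of 0.01 over 18 measured genes, with 9 above 0, 9 below 0 and 0 at 1.5-fold in either direction. Odc1, the polyamine synthesis enzyme gene, read 9.74 on the irradiated array and 9.24 on the control array, a difference of 0.51. The nucleolar protein gene Nolc1 differed by -0.37, the pyrimidine synthesis gene Cad by 0.27, Nme1 by -0.24 and Npm1 by 0.22. Myc thus differed more than any of the listed Myc targets, which lay on both sides of 0.

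The tissue label was checked against hepatocyte markers. All 14 measured hepatocyte markers were expressed, their median difference was 0.01, and none reached 1.5-fold, with Ass1 highest at 0.20. Of these 14, 9 read 13 or more on both arrays, near the top of the array's range, and saturation was not tested. Markers of bile duct, smooth muscle and pancreas included genes with larger differences, and their part in the values of the 10 genes was not tested. For the counts below, 48.5% of expressed genes were above 0 and 1.14% were at least 1.5-fold higher. Bile duct markers were measured for 11 of 13 listed genes, and the 9 expressed ones were all above 0, with a median of 0.75 and 6 at least 1.5-fold higher. The sum of the 11 linear values was 2573 on the irradiated array and 1106 on the control array, a sum in which bright probe sets weigh most and Cd24a alone gave 849 and 150 on these arrays. Muc1 differed by 2.62, Cd24a by 2.499, Krt19 by 1.20, Anxa13 by 1.12 and Epcam by 0.75, while Sox9, a duct transcription factor gene picked after its value was seen, differed by 0.19. Cftr and Tspan8 were below the floor on both arrays.

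Smooth muscle markers were all above 0 among 9 expressed genes of 10, with a median of 0.84 and 6 at least 1.5-fold higher. The lowest were Myh11 at 0.40 and Smtn and Lmod1 at 0.01 each. Their 10 linear values summed to 3476 on the irradiated array and 1547 on the control array, of which Acta2 gave 1399 and 357. Cnn1 differed by 2.42, Acta2 by 1.97, Des by 0.95, Myl9 by 0.85 and Actg2 by 0.84, and Synpo2 was below the floor on both arrays. Of the 7 pancreas acinar markers measured, 4 were expressed, and the linear values of the 7 summed to 1293 on the irradiated array and 452 on the control array, of which Ctrb1 gave 691 and 110.1. Reg1, a secreted lectin gene, read 8.18 on the irradiated array and 4.35, below the floor, on the control array, a difference of 2.13 with the control value set to the floor, and the protease gene Ctrb1 differed by 2.65. The other 2 expressed acinar genes, Cel and Cela1, differed by -0.09 and -0.02, and Cpa1, Cpb1 and Prss2 were below the floor on both arrays. The acinar genes thus did not differ together.

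Stellate cell markers had a median of 0.05 over 10 genes, with Des, also a smooth muscle marker, past 1.5-fold and Lrat at 0.18. Endothelial markers had a median of -0.08 over 10 genes, with Lyve1 highest at 0.26. The median of the 10 Kupffer cell and macrophage markers was 0.12, with Vsig4 at 0.40 and Cd68 at 0.36. Lymphocyte markers had a median of 0.00 over 7 expressed genes of 10, with Cd79a at -0.30 and Cd3g at 0.23. In the last 3 lists no gene reached 1.5-fold.

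**Figure D5:**
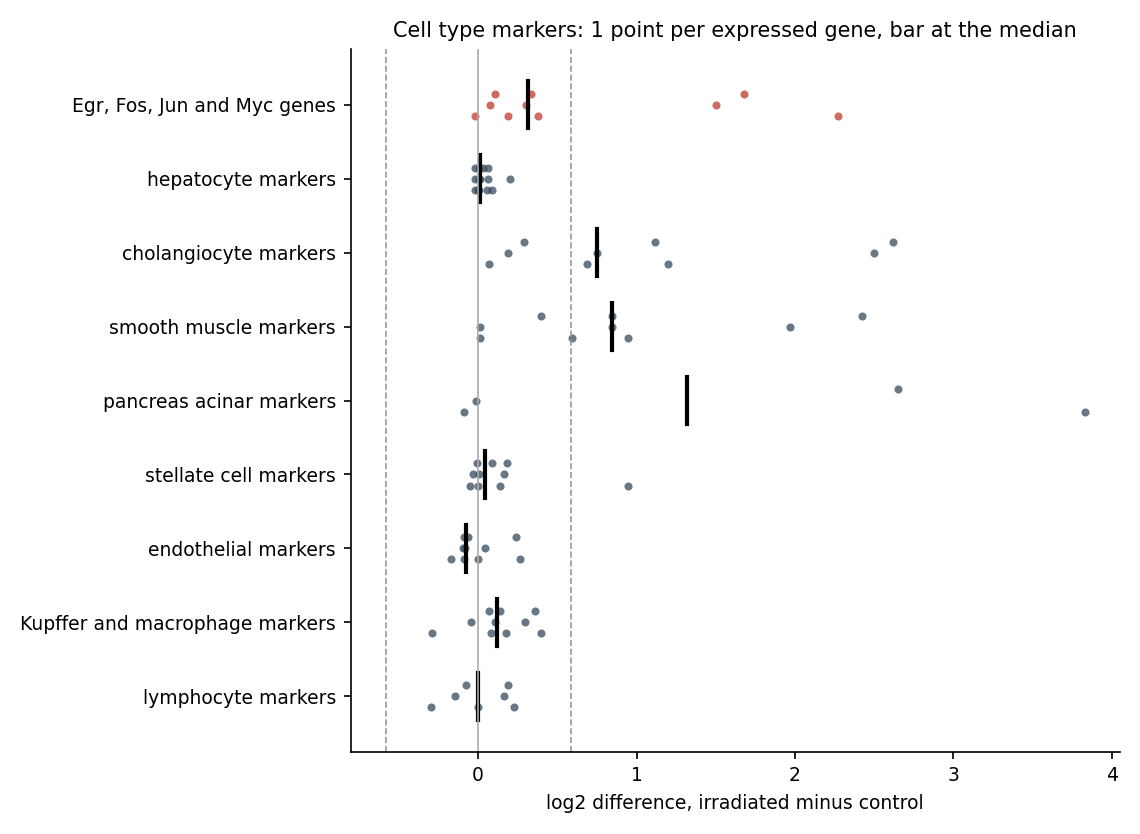
Log2 difference, irradiated minus control (horizontal axis), for every expressed marker of each cell type (rows), with the Egr, Fos, Jun and Myc genes on top, a black bar at each median and dashed lines at 1.5-fold. Bile duct and smooth muscle markers are shifted to the higher side with medians of 0.75 and 0.84, and hepatocyte markers lie close to 0.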

How the data were processed

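Total RNA was isolated with a column kit and 300 ng was labelled as biotinylated cDNA, per the labels' protocols. The authors' deposited table holds 1 log2 value per probe set and array, for 41345 probe sets. Per the submitters' processing notes, the authors used RMA in Affymetrix Expression Console 1.3.1. The file does not state the log base. Values ran from 1.47 to 13.9 on the irradiated array and from 1.46 to 13.9 on the control array, as log2 values do, with medians of 6.07 and 6.05, and every fold rests on that reading. RMA makes the arrays' distributions alike, so a difference in total RNA per cell cannot be seen.

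Gene symbols came from GEO's platform annotation, in which 23521 probe sets had 1 symbol, 1814 several and 16010 none. The members' Entrez identifiers were all found in the RefSeq table of GRCm38.p6, and list symbols were also matched through its synonyms. Genes of the lists that did not match were not analysed here. Differences were taken as irradiated minus control on the log2 scale, and counts used 1.5-fold and 2-fold (pandas 2.3.3, numpy 2.4.6, and statsmodels 0.14.6 for a loess span of 0.3). All 10 members were named, with up to 5 expressed genes of largest absolute difference in each other list and the 3 genes closest to the leading member. The members, the lists and the alternatives were chosen with earlier results of these data known. Precision is limited by having 1 array per group, and the counting was tested on simulated data.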

Additional observations from a re-analysis of the deposited data

How the results depend on the processing

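No paired analysis was possible because there was a single array per group. The alternatives changed the floor (none, or the 75th percentile of all values, 7.64), the scaling (median centring, quantile, loess), the choice among probe sets, an offset of 32 on the linear scale, and values below the floor set to it. A floor at the 95th percentile of olfactory receptor values, 6.07, was added after seeing the data. Under every one of these alternatives 3 members reached 2-fold on the higher side and 0 reached 1.5-fold or 2-fold on the lower side. For these 3, Egr1, Myc and Fos, several alternatives could not give another result. Each has 1 probe set with 1 symbol, and both its values lay above the main floor. No floor, the floor of 6.07, values set to the floor, and the mean or lowest probe set therefore left their differences unchanged. Including probe sets with several symbols left them unchanged too. Median centring only subtracted the median of -0.002 from each difference. Quantile scaling could shift a value only slightly, as the 2 arrays lay at most 0.106 apart at any rank. Neither of these scalings could bring any of the 3 below 2-fold. The loess scaling, the offset of 32 and the floor of 7.64 could have changed their count. With no replicate, a value was taken to have moved when it shifted by more than 0.229, the SD of differences over expressed genes. Only the Fos difference did, at 1.21 with the offset of 32, which by its construction shrinks differences of low values. Egr1 ranged from 2.07 to 2.29, Myc from 1.604 to 1.70, Fos from 1.21 to 1.51 and Jun from 0.37 to 0.39. Fosb ranged from 0.08 to 0.31. The median of the members ranged from 0.25 to 0.38, the upper end with the 75th percentile floor, which left 7 members. Other immediate early genes at least 1.5-fold higher numbered 6 with the mean of all probe sets or the one with the lowest mean, and 7 otherwise. All alternatives reread the same 2 arrays and do not measure the spread between animals.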
